A study of Mus musculus with 3 samples.

Results

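The tripartite-motif (Trim) family was followed on 3 two-colour microarrays that set RNA of mouse neural stem cells labelled Dnmt3a knockout (Dnmt3a-/-, KO) against RNA of cells labelled wild type (WT). Members were the non-control probes whose gene name on the array is Trim followed by a number, with Trim25 left out. This gave 50 Trim genes with 97 probes, of 27654 genes with 41174 probes on the array. A probe was tested where the scanner called it well above background in the KO channel or in the WT channel on all 3 arrays, which kept 39 Trim genes (69 probes) of 18051 genes in all. Each array held 1 of 3 biological replicates, and its value is the log2 of the RNA labelled KO over the RNA labelled WT, called the log2 ratio here. Dnmt3a encodes an enzyme that adds new methyl groups to DNA. Per the labels, the cells of both groups were grown out of embryonic stem cells without serum, with 10 ng/ml EGF and 10 ng/ml bFGF, through a neurosphere stage. The labels give neither the clones nor the deleted part of Dnmt3a, and both groups share the derivation from embryonic stem cells.

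Trim proteins carry a RING finger, B-box zinc fingers and a coiled coil in that order, and most are E3 ubiquitin ligases, which choose the proteins that receive ubiquitin. The part after the coiled coil sets the partner: a PRY-SPRY domain in most members, NHL repeats in a few linked to neuronal fate, a PHD finger with a bromodomain in chromatin-bound corepressors, and a COS box in those that bind microtubules. Many PRY-SPRY members act in antiviral defence, and some are themselves induced by interferon. In the nervous system Trim11 is known to drive the degradation of the neurogenic factor Pax6, and Trim32 and Trim3 are tied to the balance between renewal and differentiation.

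The genotype labels were checked on Dnmt3a itself, whose 3 probes were higher in the RNA labelled KO. The brightest stood at 1.07, 0.97 and 0.92 on arrays 1, 2 and 3 (log2 ratio 0.99 ± 0.08, SD, n = 3, limma adjusted p = 1.05e-06), and the others averaged 0.76 and 0.61. This goes against the label unless the probes lie outside the deleted part, so each group is named by its label, KO or WT, throughout. KO RNA carried Cy3 and WT RNA Cy5 on all 3 arrays, so a dye effect on single probes and the genotype cannot be told apart. In both channels on all 3 arrays, 9 of 9 neural stem cell, 4 of 4 neuron, 4 of 5 astrocyte, 2 of 5 embryonic stem cell, 6 of 9 muscle and 2 of 4 endothelial markers were above background. Nanog, Zfp42, Gfap, Myh3, Tnnt2 and Cdh5 were above background on no array. Several of the detected markers moved, with Actc1 (0.83 ± 0.14), Acta1 (0.64 ± 0.10) and Dppa5a (0.17 ± 0.06) higher in RNA labelled KO, and Des (-1.19 ± 0.13), Aldh1l1 (-1.01 ± 0.06) and Dcx (-0.53 ± 0.11) lower. All 5 fibroblast markers were bright, at 13.5 to 15.6 (normalised log2 intensity) in RNA labelled KO and 13.9 to 15.6 in RNA labelled WT, and 4 of them were lower in RNA labelled KO. In bulk RNA, fewer cells of a type and less RNA per cell cannot be told apart, and the part of these cells in the Trim values was not tested.

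Promoter sequences are shown for Trim21, Trim34a, Trim30a and Trim26, whose windows hold an interferon-linked motif. Trim47, the member with the lowest mean log2 ratio, is shown as a window without it. This is a picked set, and the window of Trim56, which acts in innate sensing, also lacks the motif. The printed windows can be read side by side. They were taken from RefSeq (mouse build GRCm38.p6) as 250 bases before to 50 after the annotated start, 5′ to 3′ on the gene's strand. Capitals mark GAAA, any 2 bases and GAAA again, or on the other strand TTTC, any 2 bases and TTTC, the core of the interferon-stimulated response element, to which interferon-activated transcription factors bind.
Trim21, chr7:102565433-102565732, minus strand: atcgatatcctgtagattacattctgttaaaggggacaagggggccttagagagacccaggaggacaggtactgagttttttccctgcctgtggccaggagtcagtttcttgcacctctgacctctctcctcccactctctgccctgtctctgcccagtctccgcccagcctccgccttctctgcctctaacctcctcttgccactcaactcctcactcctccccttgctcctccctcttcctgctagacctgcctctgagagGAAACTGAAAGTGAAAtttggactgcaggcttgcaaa
Trim34a, chr7:104244207-104244506, plus strand: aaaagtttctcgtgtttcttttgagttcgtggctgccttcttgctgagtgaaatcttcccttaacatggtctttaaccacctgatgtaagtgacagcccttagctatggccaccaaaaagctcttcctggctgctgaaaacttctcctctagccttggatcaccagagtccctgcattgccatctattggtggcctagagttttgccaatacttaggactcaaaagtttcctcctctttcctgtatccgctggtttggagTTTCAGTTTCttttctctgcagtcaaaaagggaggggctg
Trim30a, chr7:104465144-104465443, minus strand: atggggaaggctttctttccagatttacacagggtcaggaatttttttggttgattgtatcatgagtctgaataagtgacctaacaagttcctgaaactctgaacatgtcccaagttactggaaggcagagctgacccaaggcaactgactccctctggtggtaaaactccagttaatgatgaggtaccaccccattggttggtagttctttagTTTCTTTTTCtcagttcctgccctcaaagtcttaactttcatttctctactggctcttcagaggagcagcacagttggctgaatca
Trim26, chr17:36836896-36837195, plus strand: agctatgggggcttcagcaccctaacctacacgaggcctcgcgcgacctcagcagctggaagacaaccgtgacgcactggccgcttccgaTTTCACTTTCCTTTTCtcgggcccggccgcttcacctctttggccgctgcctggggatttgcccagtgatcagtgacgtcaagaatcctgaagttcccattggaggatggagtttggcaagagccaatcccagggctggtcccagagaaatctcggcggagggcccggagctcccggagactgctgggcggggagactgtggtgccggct
Trim47, chr11:116110186-116110485, minus strand: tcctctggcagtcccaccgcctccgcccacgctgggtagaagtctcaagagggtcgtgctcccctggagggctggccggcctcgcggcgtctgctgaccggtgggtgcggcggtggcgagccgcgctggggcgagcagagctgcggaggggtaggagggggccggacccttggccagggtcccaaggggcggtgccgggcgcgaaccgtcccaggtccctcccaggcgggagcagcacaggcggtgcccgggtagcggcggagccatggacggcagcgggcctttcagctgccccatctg

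The capitals in Trim21 and in Trim26 are overlapping matches, 2 in each window, while those of Trim34a and Trim30a have 1 match each and Trim47 has none. A second annotated start of Trim30a has a window of its own, not printed, which also holds 1 match. Of the 50 array names, 37 had at least 1 such window, and array names Trim12, Trim30 and Trim34 correspond to RefSeq Trim12a, Trim30a and Trim34a. The motif lay in 7 of 50 Trim windows (14%), belonging to 6 genes, against 3.44% of all 32851 windows. The other 2 genes were Trim12a, and Trim2 in 1 of its 5 windows. CG pairs, the sites at which Dnmt3a can act, numbered 29 in the Trim47 window, 19 in that of Trim26, 3 each in those of Trim21 and Trim34a, and 0 in that of Trim30a, beside a median of 7 over all windows. Methylation was not measured here.

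Most Trim genes differed little between the RNAs, and more members were lower than higher in the RNA labelled KO. Of 39 tested members, 15 were lower (38.5%), 6 were higher (15.4%) and 18 did not pass an adjusted p of 0.05 by limma. Among all tested genes 25.5% were lower and 22.5% were higher, so 21 of 39 members past the threshold (53.8%) stand beside 47.9% of all genes. The median log2 ratio of the tested members was -0.06, with array medians of -0.09, -0.06 and -0.05, beside -0.01 over all genes. Sizes were small: the median absolute log2 ratio was 0.11 over tested members and 0.10 over all genes. Each of the 21 members past the threshold had the same sign on all 3 arrays. These counts and medians describe the family and were not tested against other genes. With median centring in place of loess, 1 member was higher and 22 were lower, with a Trim median of -0.293 beside -0.264 over all genes, of which 773 were higher and 9619 lower. With the background model fitted on all spots 3 members were higher and 7 lower, beside 12.8% and 17.3% of all genes. With the scanner's processed signals or the authors' deposited values 4 were higher and 9 lower. Of those 4 and 9, 3 and 7 were among the reported calls. Over all genes the scanner's signals gave 19.6% higher and 20.6% lower, and the authors' values 18.9% and 20%. Without array 3, 2 members were higher and 9 lower, beside 17.2% and 19.2% of all genes. Without array 2, 2 were higher and 14 lower, beside 19.1% and 22.6%.

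**Figure D1:**
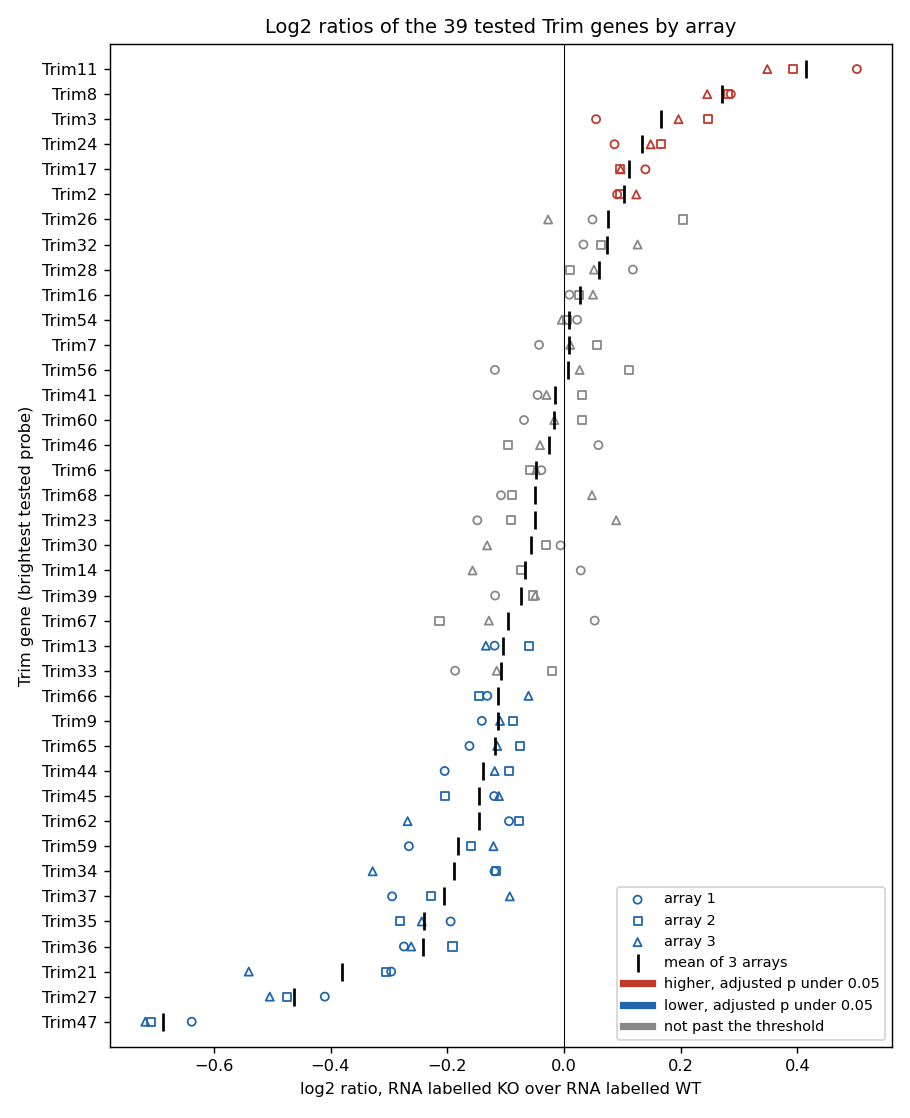
Log2 ratio, labelled KO over WT (x axis), for the 39 tested Trim genes (y axis, ordered by mean), with a circle, square or triangle for each array and a bar for the mean of 3. Trim11 and Trim8 lie furthest right, Trim47, Trim27 and Trim21 furthest left, and most members lie close to 0.

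With a log2 ratio of at least 0.3 in size as well, 4 members passed: Trim47, Trim27 and Trim21 were lower and Trim11 was higher. Across all genes 6.75% were lower and 6.95% higher by this rule.

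Trim47, a PRY-SPRY ligase first described in human as a gene overexpressed in astrocytoma, had log2 ratios of -0.64, -0.71 and -0.72 on arrays 1, 2 and 3. All 3 arrays thus lay close together and far from 0. Its mean of -0.69 ± 0.04 (SD, n = 3) is 1.61-fold lower in RNA labelled KO (adjusted p = 3.45e-06), and 2.79% of all tested genes had a larger absolute log2 ratio. Normalised log2 intensity averaged 9.80 in RNA labelled KO and 10.5 in RNA labelled WT. It rests on 1 probe, at chromosome 11, 116214858 to 116214917 on mouse build mm7 in the array files. The exon or UTR at that position is not given here.

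Trim27, the ret finger protein, a ligase and transcriptional repressor, had log2 ratios of -0.41, -0.47 and -0.50 on its brighter probe (mean -0.46 ± 0.05, adjusted p = 2.78e-05, 1.38-fold lower in RNA labelled KO). Its second probe gave 0.14, -0.17 and -0.15, averaging -0.06 ± 0.18, which did not pass (adjusted p over probes = 0.448). The values of the 2 probes do not overlap. The array files tie the brighter probe (chromosome 13, 20547550 to 20547609, mm7) to a cDNA clone and the second (start 20555951) to the RefSeq transcript, so the lower call of Trim27 holds for 1 of its 2 tested probes.

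Trim21, the cytosolic antibody receptor that sends antibody-coated virus to the proteasome, had log2 ratios of -0.30, -0.31 and -0.54. Array 3 was the lowest, and all 3 lay below 0. The mean was -0.38 ± 0.14 (adjusted p = 0.000663), 1.30-fold lower in RNA labelled KO, from 1 probe on chromosome 7 (start 98608475, mm7).

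Trim11 was the highest member, at 0.50, 0.39 and 0.35 on the 3 arrays (mean 0.41 ± 0.08, adjusted p = 9.92e-05), 1.33-fold higher in RNA labelled KO. A second probe, 0.62, 0.39 and 0.42, averaged 0.48 ± 0.12, so both probes stood above 0 on every array. Its known substrate Pax6 was higher too, at 0.20, 0.24 and 0.29 (mean 0.24 ± 0.05, adjusted p = 0.000804). Pax6 was dim, at a normalised log2 intensity of 6.62 in RNA labelled KO and 6.38 in RNA labelled WT. Of the 9 neural stem cell markers, Pax6 was the only higher one, and 6 were lower, among them Sox9 (-1.19 ± 0.06), Olig2 (-0.63 ± 0.03) and Sox2 (-0.36 ± 0.08). These are RNA ratios, and protein was not measured.

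By domain, the 19 tested PRY-SPRY members had 7 lower and 2 higher, beside 25.5% lower and 22.5% higher among all tested genes. Their median log2 ratio was -0.06. Besides Trim47, Trim27 and Trim21, the lower ones were Trim35 at -0.24 ± 0.04, Trim34 at -0.19 ± 0.12, Trim62 at -0.15 ± 0.11 and Trim65 at -0.12 ± 0.04. Trim62 is linked in human to epithelial polarity. Trim65 is known in human to ubiquitinate the RNA sensor encoded by Ifih1, and Ifih1 was itself lower here, at -0.84, -0.86 and -1.10 (mean -0.93 ± 0.15, adjusted p = 7.82e-06). The other higher member was Trim17, a ligase of neuronal apoptosis, at 0.11 ± 0.02 (adjusted p = 0.0229). The 10 PRY-SPRY members that did not pass lay between -0.07 and 0.08: Trim39, Trim14, Trim30, Trim68, Trim6, Trim60, Trim41, Trim7, Trim16 and Trim26. Trim30, Trim14, Trim6 and Trim60 were dim (log2 intensity 6.2 to 6.5), where the processing draws ratios toward 0. With the scanner's processed signals Trim30, Trim14 and Trim60 stood at -0.35, -0.23 and -0.17 and did not pass. There Trim6 (-0.18, adjusted p = 0.0458) and Trim39 (-0.145, adjusted p = 0.0401) were lower, and the other 5 lay between -0.06 and 0.07. Trim65 and Trim17 stood at -0.41 and 0.35 there.

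The 3 NHL-repeat members, none of which was lower, had a median log2 ratio of 0.10. Trim3, the counterpart of the fly fate determinant brat, had 0.06, 0.25 and 0.20 on the 3 arrays (mean 0.17 ± 0.10, adjusted p = 0.0147), with a second probe at 0.25 ± 0.03. Trim2, a brain ligase of the light neurofilament chain, averaged 0.10 ± 0.02 (adjusted p = 0.0287). Trim32, which in mouse neural progenitors degrades Myc and favours neuronal differentiation, had 0.03, 0.06 and 0.13 and did not pass (mean 0.07 ± 0.05, adjusted p = 0.111). On these standing probes all 9 array values lay above 0. Second probes of Trim2 (0.03 ± 0.03) and Trim32 (0.05 ± 0.06, with array 3 at -0.02) did not pass. With median centring the standing probes of Trim3, Trim2 and Trim32 were at -0.21, -0.30 and -0.34, beside a median of -0.26 over all genes. With the scanner's processed signals Trim32 was higher (0.195, adjusted p = 0.0232), as with the authors' deposited values (0.197, adjusted p = 0.0196). Trim3 and Trim2 did not pass with either.

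Of the 4 chromatin-bound members, Trim24, a bromodomain reader that also ubiquitinates p53, was higher at 0.13 ± 0.04 (adjusted p = 0.0128). Its second tested probe did not pass (0.04 ± 0.14, with array 1 at -0.12). Trim28, the corepressor that KRAB zinc-finger proteins recruit to silence endogenous retroviruses, had 0.12, 0.01 and 0.05 (mean 0.06 ± 0.05, adjusted p = 0.198). Trim33, a cofactor and ligase in TGF-beta signalling, had -0.19, -0.02 and -0.12 (mean -0.11 ± 0.08, adjusted p = 0.0574). Neither of these 2 passed the threshold. Trim66, a testis-enriched relative, was lower at -0.11 ± 0.05 on its standing probe.

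The partners of Trim28 did not share a direction, with 4 of 14 tested genes lower, 3 higher and 7 not past the threshold (median log2 ratio 0.04). The lower ones were the Setdb1 cofactor Atf7ip (-0.26 ± 0.03), the heterochromatin proteins Cbx1 (-0.24 ± 0.09) and Cbx3 (-0.14 ± 0.03), and Pphln1 of the HUSH silencing complex (-0.14 ± 0.03). The higher ones were the deacetylase Hdac1 (0.27 ± 0.03), the remodeller Chd3 (0.16 ± 0.02) and Zfp57 (0.11 ± 0.06), which guards imprinted regions with Trim28. Setdb1, the histone methyltransferase of the complex, had 0.06, -0.22 and -0.25 and did not pass.

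Of the 5 tested COS-box members, 2 were lower and none was higher, beside 25.5% lower and 22.5% higher among all tested genes. Trim36 averaged -0.24 ± 0.04 (adjusted p = 0.00078), but -0.03 (adjusted p = 0.126) with the background model fitted on all spots and -0.66 with the scanner's processed signals. Trim9, a brain ligase of netrin-guided axon branching, averaged -0.11 ± 0.03 (adjusted p = 0.022). Its second tested probe (-0.03 ± 0.05) did not pass, and both probes were dim (log2 intensity 6.55 to 6.70). Trim67, a neuronal relative of Trim9, had 0.05, -0.21 and -0.13 on the 3 arrays, with array 1 on the other side of 0 (mean -0.10 ± 0.14, adjusted p = 0.158). Trim46, which organises axonal microtubules, averaged -0.03 ± 0.08, and the muscle ligase Trim54 0.01 ± 0.01.

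The remaining 8 tested members have other ends, and 5 of them were lower, beside 25.5% of all tested genes. Trim37, a ligase that limits centriole assembly and is lost in human mulibrey nanism, had -0.29, -0.23 and -0.09 (mean -0.20 ± 0.10, adjusted p = 0.00617), and its call was lost under 4 alternatives (-0.15 to -0.12, adjusted p 0.0741 to 0.115). Trim59 and Trim13, anchored in the endoplasmic reticulum membrane, averaged -0.18 ± 0.07 and -0.10 ± 0.04, and Trim59 did not pass with the scanner's processed signals (-0.10, adjusted p = 0.195) or the authors' deposited table (-0.10, adjusted p = 0.171). Trim45 and Trim44 averaged -0.14 ± 0.05 and -0.14 ± 0.06, and Trim44 lacks the RING and carries a zinc finger of the deubiquitinase kind. Trim8, a regulator of cytokine signalling, was the only higher one of these 8, at 0.29, 0.28 and 0.25 (mean 0.27 ± 0.02, adjusted p = 0.000319, 1.21-fold). Trim23, which ends in a GTPase domain, and Trim56, which acts in innate sensing, averaged -0.05 ± 0.12 and 0.01 ± 0.12.

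The 11 members that were not tested were Trim10, Trim12, Trim15, Trim29, Trim31, Trim42, Trim50, Trim52, Trim55, Trim61 and Trim63. For 9 of them no probe was well above background on any array in either channel, among them the muscle ligases Trim55 and Trim63. Trim10, which is linked to red-cell maturation, was above background on 2 arrays in RNA labelled KO and 2 in RNA labelled WT, and Trim12 on 1 array in RNA labelled KO and 2 in RNA labelled WT. No fold is given for these genes. Trim60 was tested through RNA labelled WT, in which it was above background on 3 arrays, against 1 array in RNA labelled KO.

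Probes of 1 gene often gave different values. Of the 69 tested Trim probes, 24 were lower and 8 higher (46.4%, beside 44.2% of all 26681 probes). Of these probes, 5 passed the background filter through RNA labelled WT alone (1 each of Trim16, Trim30, Trim60, Trim62 and Trim66), so a lower value there is favoured by the filter. Among 23 members with over 1 tested probe, 4 had all of them past the threshold in 1 direction (Trim11, Trim3, Trim59 and, through such a probe, Trim66), 16 had some, 3 had none, and 0 had probes past the threshold in opposite directions. The other 16 members, Trim47 and Trim21 among them, rest on 1 tested probe.

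The widest split was in Trim66. One probe (chromosome 7, 105364597 to 105364656, mm7) had -0.86, -0.85 and -0.58 (mean -0.76 ± 0.16), and in RNA labelled KO it was well above background on 0 arrays. It was tested through RNA labelled WT alone, so its call is given no weight. A bound set the WT mean against the higher of the probe's own KO signal and the lowest signal called above background. It came to 1.70-fold lower in RNA labelled KO, the same as the measured ratio. The floor thus did not act, and 1.70-fold is not a detection-limit bound. The other tested probe, with its start at 105367478, had -0.13, -0.14 and -0.06.

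Trim8 was higher on its brighter probe, while a second one had -0.01, -0.28 and -0.05 and did not pass (mean -0.11 ± 0.15). Trim45 was lower on its brighter probe, and its second gave 0.10 ± 0.05 with all 3 arrays above 0. For Trim23, Trim26, Trim30 and Trim39 the standing probe did not pass but another was lower, at -0.21 ± 0.01, -0.13 ± 0.08, -0.16 ± 0.11 and -0.12 ± 0.07. The Trim30 probe among them was above background on 2 arrays in RNA labelled KO and 3 in RNA labelled WT, and so was tested through the WT channel alone.

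**Figure D2:**
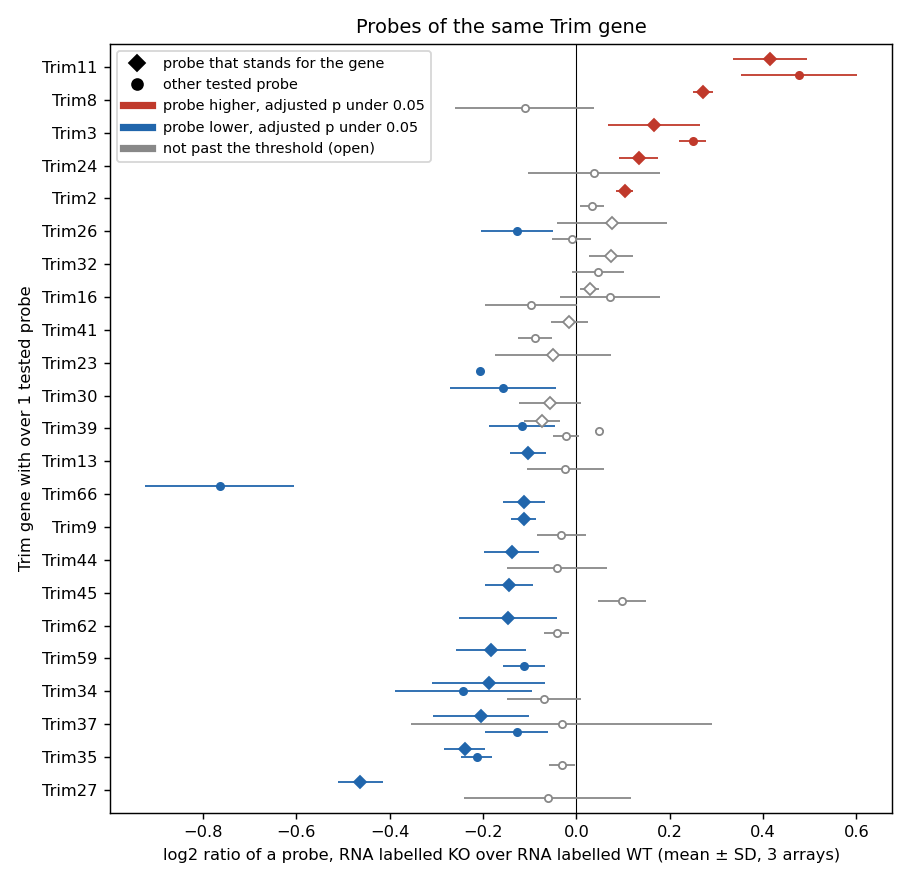
Mean log2 ratio, labelled KO over WT, with its SD over 3 arrays (x axis) for every tested probe of the 23 Trim genes with over 1 (y axis). Diamonds are the brightest probe, which stands for the gene, circles are other probes, and open marks did not pass. The probes of Trim11 lie together, and those of Trim66, Trim27 and Trim8 lie apart.

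The antiviral side of the family was set beside interferon-induced genes, a list chosen with earlier results of these data known. Of 25 tested genes of that list 22 were lower, 0 were higher and 3 did not pass, with array medians of -0.62, -0.63 and -1.10. Isg15, a ubiquitin-like modifier, averaged -1.39 ± 0.42. In 11 of 17 tested list genes with a promoter window the motif was present, beside 3.99% of all 27025 genes with a window.

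The tested Trim genes with the motif did not all share a direction. Trim21 (-0.30, -0.31 and -0.54) and Trim34 (-0.12, -0.12 and -0.33) were lower, and for each the value on array 3 was the lowest, as for the list's median. These Trim34 values are of its standing probe (chromosome 7, start 100393102, mm7). Another of its probes was lower, at -0.07, -0.33 and -0.33. A further one, with its start at 100304012, did not pass (-0.07 ± 0.08). Trim30, an interferon-induced brake on Toll-like receptor signalling, had -0.01, -0.03 and -0.13 and did not pass on its standing probe, and its other probe had -0.08, -0.11 and -0.29. Trim26 had 0.05, 0.20 and -0.03 and did not pass on its standing probe. Another of its probes was lower, at -0.08, -0.09 and -0.22, and a further one (-0.01 ± 0.04) did not pass. Trim2 was higher on its standing probe (0.10 ± 0.02) but did not pass on a second one (0.03 ± 0.03), and only 1 of its windows holds the motif. Trim12 was not tested. Trim34 and Trim30 lie among near-identical copies, so their probes may read more than 1 gene, which was not tested. Rank alone says little with 3 arrays, and array 3 was the lowest in 12 of the 39 tested members. Among them were Trim47, Trim27, Trim62 and Trim13, whose windows lack the motif, and Trim11 and Trim8, which were higher and have no window. Arrays 3 and 2 lay close in Trim47 (-0.72 and -0.71) and Trim27 (-0.50 and -0.47). They lay further apart on the standing probes of Trim21, Trim34 and Trim62 (-0.27 and -0.08). A link between the motif and these values was not tested. Of 7 leukocyte markers on the array 3 were above background, at 6.22 to 6.53 (log2 intensity) in RNA labelled KO and 6.17 to 6.34 in RNA labelled WT. Of these, Cd68 was higher in RNA labelled KO (0.19 ± 0.07, limma adjusted p = 0.00442), and Csf1r and Cx3cr1 did not pass. Ptprc and Adgre1 were above background on no array.

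**Figure D3:**
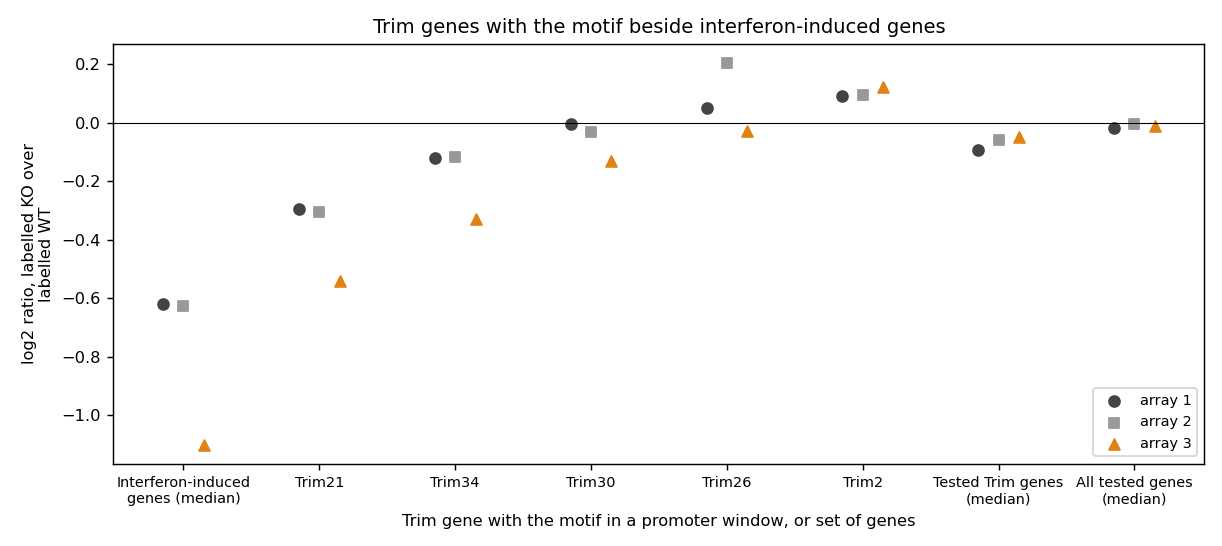
Log2 ratio, labelled KO over WT (y axis), on arrays 1, 2 and 3 (circle, square, triangle) for the 5 tested Trim genes with the motif in a promoter window, beside the medians of 25 interferon-induced genes, of 39 Trim genes and of all tested genes. Array 3 is lowest for the interferon-induced median, Trim21, Trim34, Trim30 and Trim26, and highest for Trim2.

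The pathway that several Trim ligases modify was mixed. Of 17 tested genes of antiviral signalling, 6 were higher and 5 lower, beside 22.5% higher and 25.5% lower among all tested genes. The RNA sensors Ifih1 and Ddx58 (-0.93 ± 0.15 and -0.63 ± 0.11), their adaptor Mavs (-0.26 ± 0.02), Irf7 (-0.32 ± 0.08) and Traf3 (-0.11 ± 0.08) were lower, and Ifih1 and Irf7 also belong to the interferon-induced list. The kinase Ikbke (0.28 ± 0.09), Irf3 (0.24 ± 0.02), the adaptors Sting1 (0.23 ± 0.04) and Ticam1 (0.18 ± 0.03), and the kinase-complex subunits Ikbkg (0.19 ± 0.11) and Tab3 (0.18 ± 0.10) were higher. Tbk1, the kinase that activates Irf3, had 0.18, 0.01 and 0.03 and did not pass.

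Of 12 tested ubiquitin enzymes upstream of the ligases, 2 were higher and 3 lower, beside 22.5% higher and 25.5% lower among all tested genes. Ube2e1, a conjugating enzyme, had -0.67, -0.65 and -0.69 (mean -0.67 ± 0.02, adjusted p = 2.95e-06), the lowest of the list. Ube2n, which builds the ubiquitin chains of antiviral signalling, averaged -0.17 ± 0.02, and its cofactor Ube2v1 0.22 ± 0.04, while Ube2v2 (-0.02 ± 0.08) did not pass. Ube2k averaged -0.20 ± 0.04 and the activating enzyme Uba1 0.18 ± 0.13. Of 7 tested tripartite-motif genes with other names, Pml, the organiser of nuclear bodies, was higher at 0.35, 0.37 and 0.25 (mean 0.33 ± 0.07, adjusted p = 0.000259), as was the microtubule-binding Mid2 at 0.19 ± 0.09. Cmya5 was lower at -0.18 ± 0.06, and Mid1, Fsd1, Rnf135 and Bspry did not pass.

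Genes on either side of Trim47, Trim11 and Trim21 passed the threshold in both directions. Within 500 kb of the Trim47 probe 19 of 37 tested genes were higher, 5 were lower and 13 did not pass, beside 22.5% higher and 25.5% lower in all. The higher ones included the sphingosine kinase Sphk1 (0.70 ± 0.04), Rhbdf2 (0.63 ± 0.02) and the polarity gene Llgl2 (0.44 ± 0.03), and the lower ones Foxj1 (-0.27 ± 0.01), the master factor of motile cilia. Trim65, 16765 bases from the Trim47 probe, was lower at -0.12 ± 0.04.

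Around Trim11, 3 of 23 neighbours were higher and 2 lower, with Trim17 at 0.11 ± 0.02 and the histone gene H2aw at -0.64 ± 0.11. Around Trim21, 4 of 24 were higher and 2 lower, among them Stim1, the calcium sensor of the endoplasmic reticulum, at 0.31 ± 0.04. Around Trim27, 2 of 10 were lower and 0 higher.

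**Figure D4:**
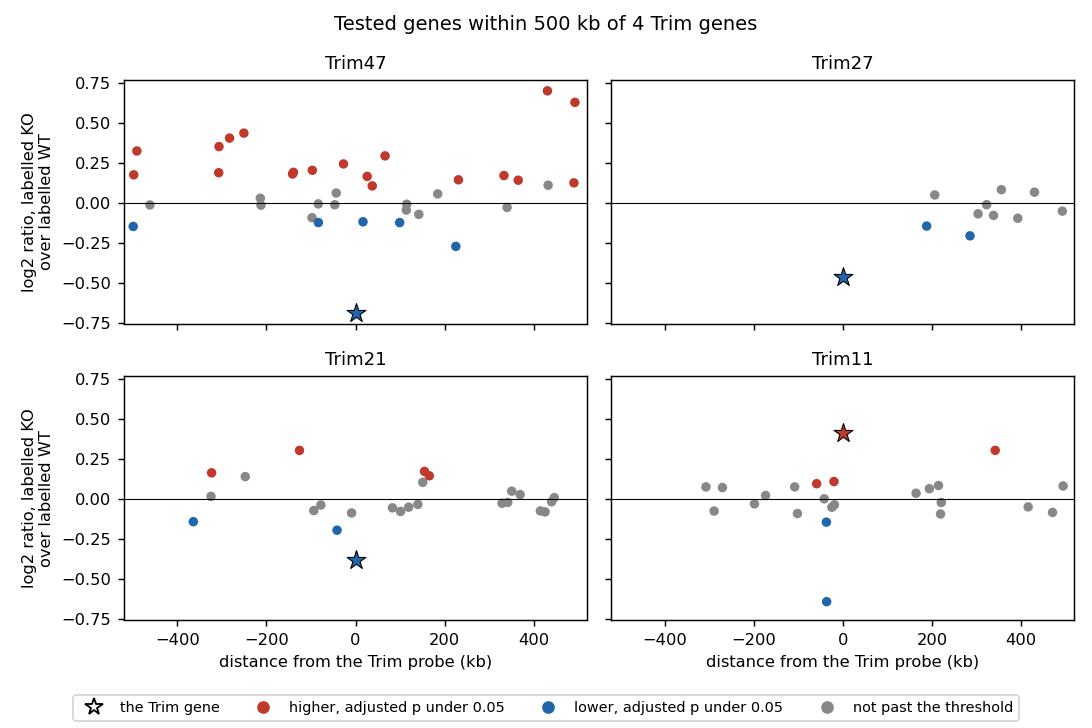
Log2 ratio, labelled KO over WT (y axis), of tested genes within 500 kb of the Trim47, Trim27, Trim21 and Trim11 probes (x axis, distance from the Trim probe in kb, mm7), with the Trim gene as a star and colour for the call. Trim47 lies below all of its 37 neighbours and Trim11 above all of its 23.

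The result for single members depended on how the arrays were processed. Trim47, Trim27 and Trim21 were lower and past the threshold under all 11 alternatives, with log2 ratios of -1.11 to -0.60, -0.90 to -0.26 and -0.72 to -0.20. Trim35, a ligase linked to blood cell maturation and cell death, also stayed past the threshold under each (-0.70 to -0.16). Of its 3 tested probes 2 were lower, and the other (-0.03 ± 0.03) did not pass. Trim11 was higher and past the threshold under 10 of the 11, at up to 0.50, and stood at 0.01 (adjusted p = 0.891) with median centring in place of loess, which moved the median of all genes to -0.26. The higher call of Trim8 was lost with median centring (-0.23) and with the mean over its probes (0.08, adjusted p = 0.11). Median centring also ended the calls of Trim3, Trim9, Trim65 and Trim66 and turned those of Trim2 and Trim24 to lower. The mean over probes also ended those of Trim2, Trim9, Trim13, Trim24, Trim37, Trim45 and Trim62. Leaving out array 3 ended the calls of Trim2, Trim3, Trim9, Trim13, Trim17, Trim24, Trim34, Trim44, Trim62 and Trim65. Leaving out array 2 ended those of Trim2, Trim3, Trim17, Trim24, Trim45 and Trim66, and leaving out array 1 those of Trim9, Trim13, Trim17, Trim44, Trim65 and Trim66. Their log2 ratios kept their sign (adjusted p 0.0508 to 0.179), and without array 3 Trim34 stood at -0.12 and Trim62 at -0.09. With the background model fitted on all spots the calls of Trim2, Trim3, Trim9, Trim13, Trim17, Trim34, Trim36, Trim37, Trim62, Trim65 and Trim66 were lost. With the scanner's signals and with the authors' deposited table those of Trim2, Trim3, Trim13, Trim24, Trim34, Trim37, Trim44, Trim45, Trim59, Trim62 and Trim66 were lost. With both of these, Trim32 was called higher and Trim39 and Trim6 lower, which did not pass as reported. Other lower calls gained were Trim23 with the mean over probes, Trim67 without array 1 and Trim33 without array 2. Median centring brought further lower calls.

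**Figure D5:**
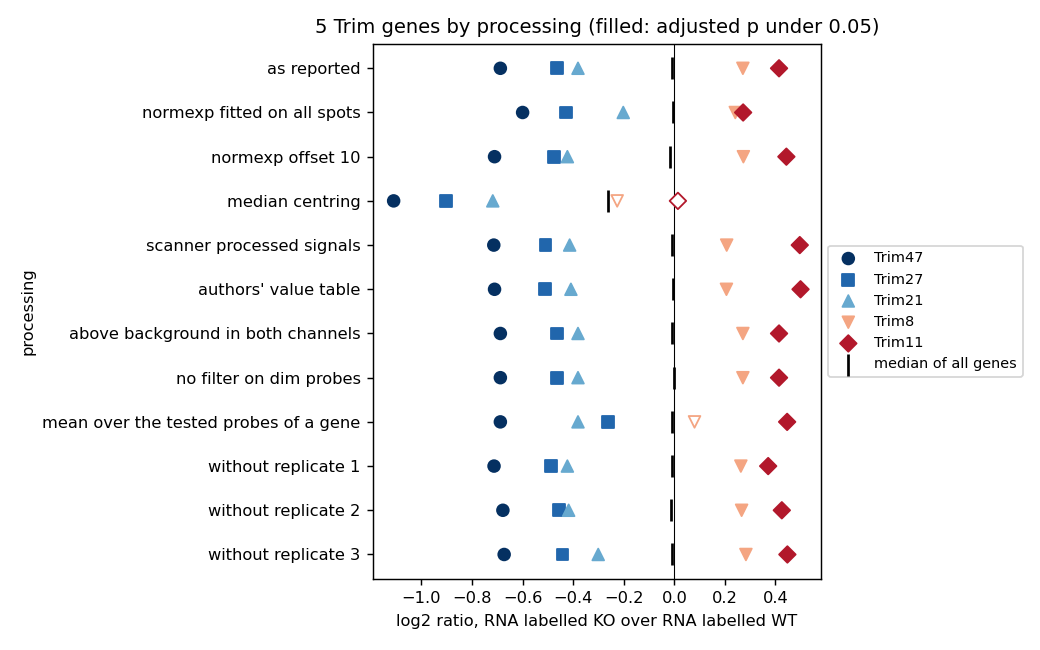
Log2 ratio, labelled KO over WT (x axis), of Trim47, Trim27, Trim21, Trim8 and Trim11 under the processing as reported and 11 alternatives (y axis). Filled marks passed an adjusted p of 0.05, open ones did not, and the black bar is the median of all tested genes. Median centring moves the bar and the genes to the left, and Trim11 and Trim8 are open there.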

How the data were processed

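Total RNA was amplified to labelled cRNA and hybridised to two-colour Agilent 4x44K mouse arrays, all 3 on 1 slide, with 45018 features each, and no dye swap. Per the file headers, the deposited files came from Agilent Feature Extraction 9.5.3.1 and hold raw intensity values for spot and background, processed intensity values and a log10 ratio of red over green, with positions on mm7. The authors also deposited a value table, read as log2 of KO over WT because its columns correlated with the scanner's red over green ratio at r = -0.998, -0.996 and -0.992. Its medians were 0.0276 on each array, and its centring is not stated in those sources.

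Here the normexp method of limma 3.58.1 in R 4.3.3 was applied to spot means and local background medians (offset 50, which draws dim ratios toward 0), fitted on spots without outlier marks. That choice had been made earlier, after the fit on all spots was seen, since a few marked spots far below background drew its background mean to between -489 and -167. Ratios were normalised by loess within arrays, giving control spots weight 0. They were then turned to KO over WT by the labelled dyes, and replicate spots were averaged. Spots with a feature-outlier mark were left out, of which the members had 0, and 3, 0 and 2 member spots with only a background mark were kept. The brightest tested probe stood for a gene, and 22951 probes were named by accession, 9811 by symbol or synonym, and 8412 kept the array's name. Means were tested against 0 with limma's lmFit and eBayes, two-sided with 2 residual df per gene, Benjamini-Hochberg adjusted over 18051 genes. The replicates are biological per the labels, and whether they come from separate clones is not given.

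Median spot signals were 75.7 to 88.1 in the KO channel and 92.1 to 105 in the WT channel, and the number of arrays limits the precision. Log2 ratios of 2 arrays correlated across genes at r = 0.906 to 0.928, and across the tested Trim genes at 0.833 to 0.892. Genes are not independent replicates. Scripts were tested on simulated data. Every member may be named, and those past the threshold with an absolute log2 ratio of at least 0.3 have a value for each array. Such values are also given for some members with smaller ratios or that did not pass. The value of 1 listed gene is not reported here. The members and the gene lists were chosen with earlier results of these data known. Alternatives changed the background model, offset, normalization, filter, probe rule or replicates, or took the scanner's processed signals or the authors' table.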

Additional observations from a re-analysis of the deposited data

How the results depend on the processing

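The reported values were 6 Trim genes higher and 15 lower, a Trim median of -0.0561, and 4054 and 4601 of all genes higher and lower. Normexp fitted on all spots gave 3 higher and 7 lower Trim genes, a Trim median of -0.0123, and 2317 genes higher and 3128 lower. Median centring gave 1 higher Trim gene (Trim17) and 22 lower, a Trim median of -0.293, and 773 genes higher and 9619 lower, with the median of all genes at -0.264. There the log2 ratios of Trim24 (-0.389), Trim8 (-0.226), Trim28 (-0.422), Trim26 (-0.381), Trim16 (-0.403), Trim32 (-0.345), Trim2 (-0.296) and Trim3 (-0.207) turned below 0, and relative to the median of all genes Trim8, Trim3 and Trim11 (0.0141) stayed above it. The scanner's processed signals gave 9 lower Trim genes and a median of -0.0954, and the authors' deposited values gave 9 and -0.0981. Of all genes, 3541 were higher and 3710 lower with the scanner's signals, and 3408 and 3618 with the authors' values. The Trim median was -0.0946 with offset 10 and -0.0259 with no filter on dim probes. The mean over probes left 3 Trim genes higher, beside 3873 of all genes. Leaving out 1 replicate gave 2 to 5 higher and 9 to 14 lower Trim genes, a Trim median of -0.0803 to -0.0457, and 3111 to 3856 genes higher and 3472 to 4100 lower. Without replicate 3, 2 members were higher and 9 lower, with Trim34, Trim62 and Trim44 among those lost, and without replicate 2, 2 were higher. Trim34 lost its call with all spots at -0.0273 (adjusted p = 0.176), and with the scanner's signals and the authors' table at larger log2 ratios, -0.455 and -0.45 (adjusted p = 0.0623 and 0.0511). The cause of these changes was not tested. No paired analysis was possible because the arrays form 1 group whose ratio already pairs the RNAs of a replicate. Without a dye swap, dye and genotype cannot be told apart, and a probe near background has a ratio drawn toward 0.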
